A study of Mus musculus with 4 samples.

Results

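Nearly all proteins of a mitochondrion are made in the cytosol and have to be brought in through its membranes, and the genes described here encode the machinery that does this. They were the genes whose names begin with Timm or Tomm followed by a number, together with *Timmdc1*, *Pam16*, *Dnajc19*, *Samm50* and the metaxin genes *Mtx1*, *Mtx2* and *Mtx3*, leaving out names marked as pseudogenes. The name rule found 33 of the 55401 genes in the table, and 30 of them reached a mean TPM of at least 1 and were tested. TPM is a relative transcript level that accounts for transcript length, with the same total in every library.

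RNA of hearts from 4 mice aged 8 weeks was measured, with 1 library per heart. The 2 wild-type mice were compared with 2 *Ctcf* heterozygous mice that carry the R567W substitution of CTCF, a DNA-binding protein of chromatin loops, on a single *Ctcf* allele. The allele was made by CRISPR/Cas9 editing and is present in all cells of the animal, so that an effect in the heart muscle cells cannot be told apart from one elsewhere. The methods describe capture of mRNA for libraries of embryonic (E18.5) hearts and do not describe libraries of the 8-week hearts separately. Hearts are named by genotype and replicate, with values always in the order wild-type 1, wild-type 2, heterozygous 1, heterozygous 2.

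Precursor proteins first meet the TOM complex of the outer membrane, with its receptors and the pore protein Tomm40. From there, beta-barrel proteins reach the SAM complex of the same membrane with the help of small Tim chaperones in the intermembrane space. Carrier proteins are handed by these chaperones to the TIM22 complex of the inner membrane, and proteins with a cleavable presequence pass through the TIM23 complex, where a motor on the matrix side pulls them in. Cardiac muscle is rich in mitochondria, and loss of DNAJC19 in people is known to cause a cardiomyopathy.

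Levels are given as scaled TPM, which is the TPM of a heart divided by the median-of-ratios factor of that heart. These factors were 1.09, 1.26, 0.818 and 0.903. Transcripts of mitochondrial DNA made up between 61.1% and 68.6% of all TPM, and together with 11 nuclear copies of them between 76.0% and 85.8%, with the highest share in heterozygous 1. Depth cannot be read from TPM, so the counting error of a level is unknown. Fitted differences are heterozygous minus wild-type on the log2(scaled TPM + 1) scale, from limma over all 10036 tested genes, with the standard error (SE) and the p adjusted over those genes. This scale understates the change of low genes. To be called, a gene had to differ by more than 1.5-fold with its adjusted p below 0.05.

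None of the 30 tested import genes was called. Over all tested genes the same rule called 0.0199% lower, which is 2 genes, and 0.0% higher. At an unadjusted p under 0.05 limma gave 0 import genes, where 5.71% of all tested genes were lower and 6.49% higher. Fitted differences of the import genes ran from -0.44 for *Timm17a* to 0.33 for *Mtx1*, with a median of -0.08 beside -0.00 over all tested genes, and none was past 1.5-fold. In 20 of 30 genes (66.7%) the difference was below 0, as it was in 50.7% of all tested genes. Both heterozygous hearts were under both wild-type hearts in 9 of the 30 import genes, with a background of 23.3%, and above both in 2 (6.67%), with a background of 23.7%. The other 19 overlapped between the genotypes.

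Differences of this size depend on the scaling. Unless another scaling is named, counts below or above 0 hold under the factors above, where the median of all tested genes was -0.00. With TPM as deposited that median shifted to -0.35, and all 30 import genes were below 0. With the mt- genes removed it shifted to -0.31, and 28 of 30 were below 0. With the mt- genes and their nuclear copies removed it was 0.05, and 15 were below 0. Relative to the median, 19 import genes lay under it in the main scaling, 22 with TPM as deposited, and 19 in each of the settings with genes removed.

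**Figure D1:**
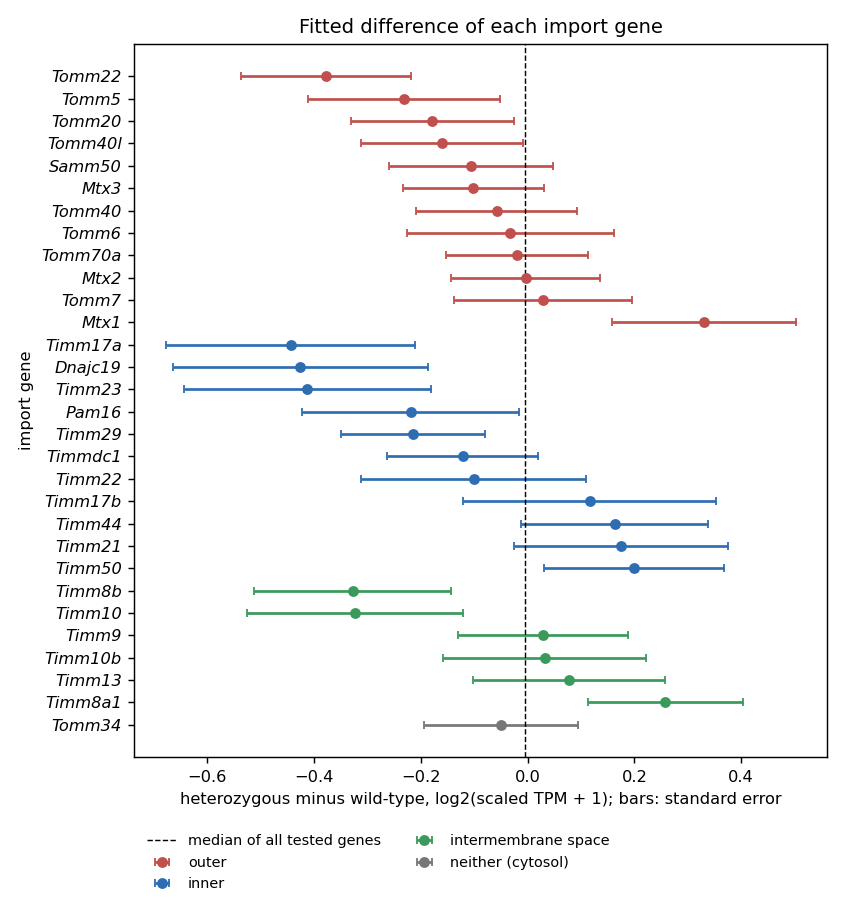
Fitted difference of each tested import gene (points, heterozygous minus wild-type, log2(scaled TPM + 1)) with its standard error (bars), coloured by the place of the protein; the dashed line is the median of all tested genes. The 12 outer, 11 inner and 6 intermembrane space genes each lie on both sides of the line, between -0.44 for *Timm17a* and 0.33 for *Mtx1*.

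The promoters give a view of what these genes share that their names do not. RefSeq windows on GRCm38.p6 of 250 bases before to 50 bases after the start were given for 30 of the 33 genes (*Timm21*, *Tomm40l* and *Tomm7* had none), and both strands were searched. CCGGAAG, the core of the binding site of ETS factors such as GABP, was in the window of 13 of the 30 genes (43.3%), of 21.7% of the tested genes with a window and of 9.93% of all genes with a window. The stretches around it are shown for 5 genes that span the range of fitted differences, read in the direction of the gene with the ETS core or its reverse complement in capitals.
*Tomm22*, chr15:79670794-79670860, + strand: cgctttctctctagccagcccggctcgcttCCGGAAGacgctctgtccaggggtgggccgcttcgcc
*Timm23*, chr14:32201902-32201968, - strand: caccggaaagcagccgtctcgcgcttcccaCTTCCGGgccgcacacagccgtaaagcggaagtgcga
*Timm8b*, chr9:50603859-50603900, + strand: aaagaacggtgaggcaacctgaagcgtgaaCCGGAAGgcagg
*Mtx2*, chr2:74825757-74825811, + strand: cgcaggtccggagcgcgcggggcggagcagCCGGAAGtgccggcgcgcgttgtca
*Mtx1*, chr3:89213908-89213947, - strand: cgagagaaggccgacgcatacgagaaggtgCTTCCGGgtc

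Fitted differences were then set against the presence of the ETS core, with no test. The median fitted difference was -0.11 over the 12 tested genes with it and -0.06 over the 15 tested genes with a window that lacks it. Of those 12 genes 10 were below 0 and 2 above, beside 20 of all 30 import genes (66.7%) and 50.7% of all tested genes below 0. The printed genes ran from *Timm23* (-0.41), *Tomm22* (-0.38) and *Timm8b* (-0.33) through *Mtx2* (-0.00) to *Mtx1* (0.33), the highest of all import genes. The *Mtx1* stretch lies before its RefSeq start, inside a coding exon of longer GENCODE transcripts. A match is a run of letters and does not show that a factor binds.

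CTCF is the protein altered in these mice, and the core of its motif was searched for. The paper places the altered residue in a part of CTCF that binds a separate upstream motif, which was not searched for. A match stood in the window of 1 import gene, *Tomm5*, compared with 2.79% of the tested genes and 1.48% of all genes. The NRF1 motif, of a factor known for nuclear genes of mitochondria, was found in *Pam16*, *Timm8b* and *Tomm20*, with 12.3% of the tested genes and 5.19% of all genes. The *Tomm5* and *Tomm20* stretches are shown because they carry these motifs, in capitals and as read in the direction of the gene.
*Tomm5*, chr4:45108181-45108252, - strand: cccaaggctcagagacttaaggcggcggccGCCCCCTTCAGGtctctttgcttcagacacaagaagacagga
*Tomm20*, chr8:126945922-126945971, - strand: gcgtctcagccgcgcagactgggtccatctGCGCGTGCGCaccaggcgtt

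AAGATGGCG, the YY1 motif, was in *Mtx1*, *Mtx3* and *Timm50*, compared with 4.05% of the tested genes and 1.64% of all genes. TCAAGGTCA, the motif of oestrogen-related receptors, was in *Timm8b*, compared with 0.322% of the tested genes and 0.466% of all genes. *Timm8b* thus held the ETS, NRF1 and oestrogen-related receptor letters together. These lists of 1 to 3 genes are too short to set their fitted differences against those of the rest.

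The mutated gene itself was checked first among the values. *Ctcf* (chr8:105636568-105682922) was at 6.12, 6.02, 7.51 and 5.76 scaled TPM, with overlapping genotypes (difference 0.10, SE 0.16, adjusted p = 0.814 from limma). A substitution need not alter the RNA level, so this does not check the genotype labels.

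Levels of the import genes spanned 34.3-fold on the scaled TPM scale, averaged over the 4 hearts. The small Tim chaperone gene *Timm8b* was highest, at a mean of 50.8, followed by *Tomm5* at 45.4, *Timm23* at 26.7, *Timm44* at 26.4 and *Samm50* at 24.0. *Mtx3* at 1.70 and the receptor gene *Tomm70a* at 1.48 were lowest. Of the 29 pairs of neighbours in this order, 24 overlapped in their values over the hearts. Compared within each heart, 21 of these had a mixed order, while *Timm8b* was above *Tomm5*, *Tomm6* above *Timm13* and *Timm8a1* above *Timm17b* in all 4 hearts. The 5 pairs without overlap were *Tomm5* above *Timm23*, *Tomm7* above *Tomm34*, *Mtx2* above *Timm22*, *Timm29* above *Mtx3*, and *Mtx3* above *Tomm70a*.

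**Figure D2:**
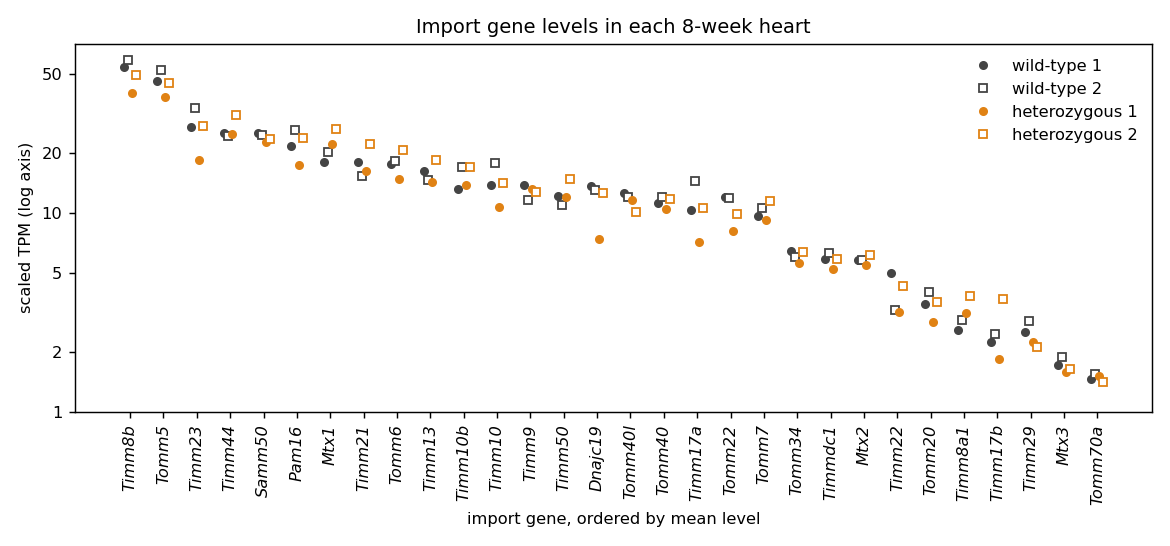
Level of each tested import gene in each of the 4 hearts (scaled TPM, log axis), ordered by mean level; circles are replicate 1 and open squares replicate 2, grey wild-type and orange heterozygous. Levels fall from 50.8 for *Timm8b* to 1.48 for *Tomm70a*, and the filled orange circle of heterozygous 1 is the lowest of the 4 points in 20 of the 30 genes.

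The other 3 genes found by the name rule were not tested because they were barely present. *Timm8a2*, a relative of *Timm8a1*, was at 0.08, 0.04, 0 and 0 TPM as deposited. *Tomm20l*, a relative of *Tomm20*, was listed at 0 in 3 hearts and at 0.18 in heterozygous 1. *Tomm6os*, a transcript antisense to *Tomm6* and not a subunit, was at 0.08, 0.13, 0.01 and 0.05 TPM.

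The TOM complex is the entry gate, and 7 of its 8 tested genes had a fitted difference below 0, with a median of -0.11. *Tomm22* (chr15:79670861-79673400), the central receptor that also holds the complex together, was at 12.0, 11.9, 8.12 and 9.93 scaled TPM. Both heterozygous hearts were under both wild-type hearts, and the wild-type hearts lay close together. Its difference of -0.38 (SE 0.16) had the smallest p of any import gene, 0.0510 before and 0.412 after adjustment in limma.

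*Tomm5* (chr4:45105208-45108114), a small subunit beside the pore, had the highest level in the complex, at 46.0, 52.3, 38.4 and 45.1 scaled TPM. Heterozygous 1 was lowest by some distance while heterozygous 2 lay just under wild-type 1 (difference -0.23, SE 0.18, adjusted p = 0.601 from limma). *Tomm40* (chr7:19701313-19715438), the pore itself, was at 11.2, 12.0, 10.5 and 11.8, with heterozygous 2 between the wild-type hearts (difference -0.06, SE 0.15, adjusted p = 0.891 from limma). Its relative *Tomm40l* (chr1:171216011-171222514) was at 12.6, 12.0, 11.6 and 10.2, with both heterozygous hearts below (difference -0.16, SE 0.15, adjusted p = 0.671 from limma). Of its exon bases, 64.3% are shared with *Nr1i3* on the other strand, listed at 0.09 to 0.14 TPM.

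*Tomm7*, a small subunit that also stabilises PINK1 on damaged mitochondria, was at 9.63, 10.6, 9.25 and 11.6 and had the highest difference of the complex (0.03, SE 0.17, adjusted p = 0.954 from limma). The heterozygous hearts stood on either side of the wild-type hearts. The presequence receptor *Tomm20* (difference -0.18), the small subunit *Tomm6* (-0.03) and the receptor *Tomm70a* (-0.02), which takes in carrier precursors, completed the complex. *Tomm20* was at 3.47, 3.98, 2.83 and 3.55, and these genes overlapped between the genotypes. *Tomm6* shares 76.0% of its exon bases with the readthrough gene *Gm21981*, which was listed at no more than 0.55 TPM.

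The SAM complex inserts beta-barrel proteins into the outer membrane and works with the metaxins. *Samm50* (chr15:84192241-84217267), its barrel-shaped core, had the highest mean level of this group, at 25.2, 24.7, 22.7 and 23.5 scaled TPM. The heterozygous hearts were lower without overlap, by a small step (difference -0.11, SE 0.15, adjusted p = 0.792 from limma). That step was well inside the standard error.

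*Mtx1* (chr3:89209081-89227088), a metaxin of the outer membrane, had the highest fitted difference of all import genes. It was at 18.1, 20.2, 22.2 and 26.6 scaled TPM, so that both heterozygous hearts lay above both wild-type hearts (difference 0.33, SE 0.17, adjusted p = 0.464 from limma). With TPM as deposited its difference was -0.10, still above the median of all genes in that scaling. Its exons overlap *Thbs3* on the other strand over 8.9% of their bases, and *Thbs3* was at 4.64 to 6.67 TPM as deposited.

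*Mtx2*, the partner of *Mtx1* at the outer membrane, was at 5.80, 5.79, 5.46 and 6.11 (difference -0.00, SE 0.14, adjusted p = 0.992 from limma). The wild-type hearts were nearly equal, with a heterozygous heart on each side. The remaining metaxin gene, *Mtx3*, was at 1.71, 1.89, 1.58 and 1.64, lower in both heterozygous hearts (difference -0.10, SE 0.13, adjusted p = 0.765 from limma).

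The TIM23 complex forms the presequence channel of the inner membrane, and its 5 genes split. *Timm23* (chr14:32180162-32201898), the channel protein, was at 27.1, 33.9, 18.5 and 27.4 scaled TPM (difference -0.41, SE 0.23, adjusted p = 0.485 from limma). Heterozygous 1 stood far below the other 3 hearts, while heterozygous 2 was level with wild-type 1. *Timm17a* (chr1:135295213-135313778), which shapes the channel with *Timm23*, was at 10.3, 14.4, 7.14 and 10.6, with the same order of hearts (difference -0.44, SE 0.23, adjusted p = 0.467 from limma).

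Its X-linked relative *Timm17b* (chrX:7899357-7908351) was at 2.25, 2.47, 1.83 and 3.68, so that the heterozygous hearts were the lowest and the highest (difference 0.12, SE 0.24, adjusted p = 0.858 from limma). *Timm50* (chr7:28305516-28312072), the receptor facing the intermembrane space, was at 12.2, 10.9, 12.1 and 14.9 (difference 0.20, SE 0.17, adjusted p = 0.637 from limma). Heterozygous 1 was between the wild-type hearts and heterozygous 2 above them. *Timm21*, which links TIM23 with TOM, was at 18.2, 15.4, 16.2 and 22.2, with the same pattern (difference 0.17). Reads of *Timm23* could be split with copies of at least 95% identity, the highest of which was listed at 1.12 TPM. Summed with the copies listed above 0, *Timm23* was at 27.92, 35.01, 18.87 and 27.89 scaled TPM. In that sum heterozygous 2 fell just under wild-type 1, so that the genotypes no longer overlapped.

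In the presequence motor, which pulls the chain into the matrix, *Dnajc19* (chr3:34056020-34081321) encodes a J-domain protein of the inner membrane. It was at 13.7, 13.0, 7.40 and 12.6 scaled TPM, lower in both heterozygous hearts but by very unequal steps (difference -0.43, SE 0.24, adjusted p = 0.486 from limma). Without heterozygous 1 the gap is the small one between 12.6 and 13.0. *Pam16*, which holds the J-domain protein in check, was at 21.8, 26.2, 17.5 and 23.8 and overlapped (difference -0.22, SE 0.20). *Timm44* (chr8:4259731-4275913), which tethers the motor to the channel, was the highest of this group at 25.3, 24.3, 25.1 and 31.1 (difference 0.16, SE 0.18, adjusted p = 0.713 from limma). *Pam16* has a copy, *Gm9803*, identical over 534 aligned bases, at 2.73, 3.00, 1.03 and 1.12 TPM as deposited.

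The TIM22 complex inserts carrier proteins, such as the ADP/ATP carrier, into the inner membrane. *Timm22* (chr11:76406952-76416292), its channel, was at 4.96, 3.25, 3.16 and 4.30 scaled TPM (difference -0.10, SE 0.21, adjusted p = 0.860 from limma). Its wild-type hearts differed by more than the genotypes did. *Timm29* (chr9:21592722-21595970), a subunit found in animals, was at 2.53, 2.87, 2.24 and 2.13, lower in both heterozygous hearts (difference -0.22, SE 0.13, adjusted p = 0.523 from limma).

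The small Tim chaperones carry hydrophobic precursors through the intermembrane space, and 2 of their 6 tested genes had a difference below 0. *Timm8b* (chr9:50603910-50605320) was at 54.1, 58.9, 40.4 and 49.7 scaled TPM, lower in both heterozygous hearts (difference -0.33, SE 0.18, adjusted p = 0.488 from limma). *Timm8a1* (chrX:134537256-134541865), the mouse counterpart of the gene of a deafness-dystonia syndrome, was at 2.57, 2.90, 3.14 and 3.81, higher in both (difference 0.26, SE 0.15, adjusted p = 0.488 from limma). These related genes thus lay on opposite sides of the median.

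*Timm8a1* is uncertain because its copy *Gm9797* is identical over 612 aligned bases and reads could be split between them. Summed, the pair was at 4.69, 3.55, 6.51 and 5.98 scaled TPM, with both heterozygous hearts still above. Of the chaperones of the main hexamer, *Timm10* had a difference of -0.32 (SE 0.20) and its partner *Timm9* one of 0.03 (SE 0.16). *Timm10b* (0.03) and *Timm13* (0.08) were likewise close to the median, and these chaperones overlapped between the genotypes.

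*Timmdc1* and *Tomm34* share the names but were placed in none of the complexes above. *Timmdc1*, an assembly factor of complex I in the inner membrane, was at 5.88, 6.32, 5.21 and 5.86, lower in both heterozygous hearts by a narrow margin (difference -0.12, SE 0.14, adjusted p = 0.733 from limma). *Tomm34*, a cytosolic co-chaperone, was at 6.45, 5.99, 5.59 and 6.38, with overlap (difference -0.05, SE 0.14, adjusted p = 0.901 from limma).

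Outer and inner membrane genes did not separate. The median fitted difference was -0.08 over 12 outer genes, of which 10 were below 0, and -0.12 over 11 inner genes, of which 7 were below 0. For the 6 intermembrane space genes it was 0.03. Taken relative to the median of all tested genes these were -0.07, -0.12 and 0.03, and with TPM as deposited -0.11, -0.15 and -0.04. The mean log2 level of outer minus inner genes, which compares the membranes within a heart, was -0.07, -0.04, 0.11 and -0.13. Its wild-type mean was -0.06 ± 0.03 (SD, n = 2) and its heterozygous mean -0.01 ± 0.17 (SD, n = 2), and the heterozygous hearts lay on either side of the wild-type hearts.

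In the mean level of each membrane, the gap between both heterozygous hearts was wider than that between the genotypes. Heterozygous 1 was the lowest of the 4 hearts in 20 of 30 import genes (66.7%) and in 31.4% of all tested genes. The mean log2 level of the 11 inner genes was 3.48, 3.51, 3.18 and 3.58, so that heterozygous 2 was the highest heart and heterozygous 1 the lowest. For the 12 outer genes it was 3.41, 3.47, 3.29 and 3.44, and for the 6 intermembrane space genes 3.89, 3.99, 3.78 and 4.02. Over all tested genes the means were 2.77, 2.77, 2.75 and 2.77.

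Against the wild-type mean, 14 of the 30 import genes were below in both heterozygous hearts (46.7%, background 33.1%), 10 in heterozygous 1 alone (33.3%, background 16.5%) and 1 in heterozygous 2 alone (3.33%, background 17.5%). The other 5 were above in both (16.7%, background 32.8%). Without heterozygous 1 the median difference of the import genes was 0.00, with 15 of 30 below 0. Without heterozygous 2 it was -0.14, with 24 of 30 below 0. The inner genes moved furthest, from -0.01 without heterozygous 1 to -0.25 without heterozygous 2. A lower level in bulk tissue cannot tell fewer cells of a type from less RNA per cell.

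**Figure D3:**
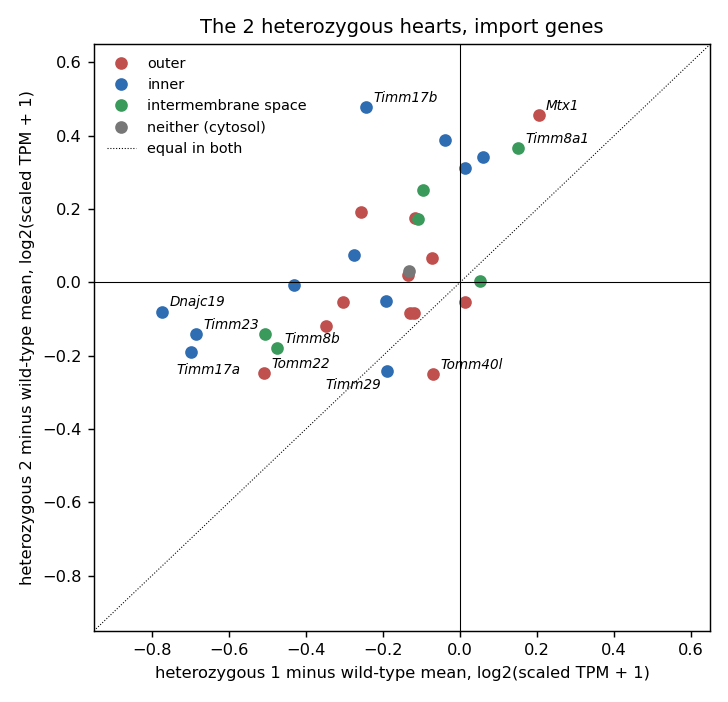
Difference of each heterozygous heart from the wild-type mean for each tested import gene (log2(scaled TPM + 1)), heterozygous 1 on the horizontal and heterozygous 2 on the vertical axis, coloured by the place of the protein, with a dotted line where both are equal. Of the 30 points 26 lie above the dotted line, and *Dnajc19*, *Timm23* and *Timm17a* lie far to the left and much less far below 0 on the vertical axis.

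Heterozygous 1 was also the lowest heart for other nuclear genes of mitochondria. It was lowest in 62 of 79 tested genes of the mitochondrial ribosome and in 43 of 50 of nuclear complex I, beside 57 of 80 of the cytosolic ribosome. The median differences of these lists were -0.16, -0.20 and -0.03. Cardiomyocyte markers, all 8 of 8 above 0, summed to 23383 to 24889 scaled TPM in the wild-type hearts and to 20060 in heterozygous 1 and 23971 in heterozygous 2. Fibroblast markers (5 of 5) summed to 39.9 and 57.9 in wild-type and 32.2 and 38.7 in heterozygous hearts, and endothelial markers (5 of 5) to 251 and 249.9 in wild-type and 286 and 329 in heterozygous hearts. Atrial markers (4 of 4) ranged from 806 to 2354 in wild-type and from 1918 to 3281 in heterozygous hearts, and erythroid markers (5 of 5) from 930 to 987 and from 965 to 2120. Smooth muscle and macrophage markers overlapped between the genotypes and were lowest in heterozygous 1, at 32.6 and 25.1. The part of these shifts in the import gene values was not tested. Of 5 skeletal muscle markers 3 (*Ckm*, *Acta1* and *Mylpf*) were above 0 in every heart and summed to 475, 452, 380 and 471. *Myh1* and *Myh4* were listed at 0. The paper reports *Acta1* among genes expressed in embryonic hearts, so the sum is not read as a measure of skeletal muscle.

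**Figure D4:**
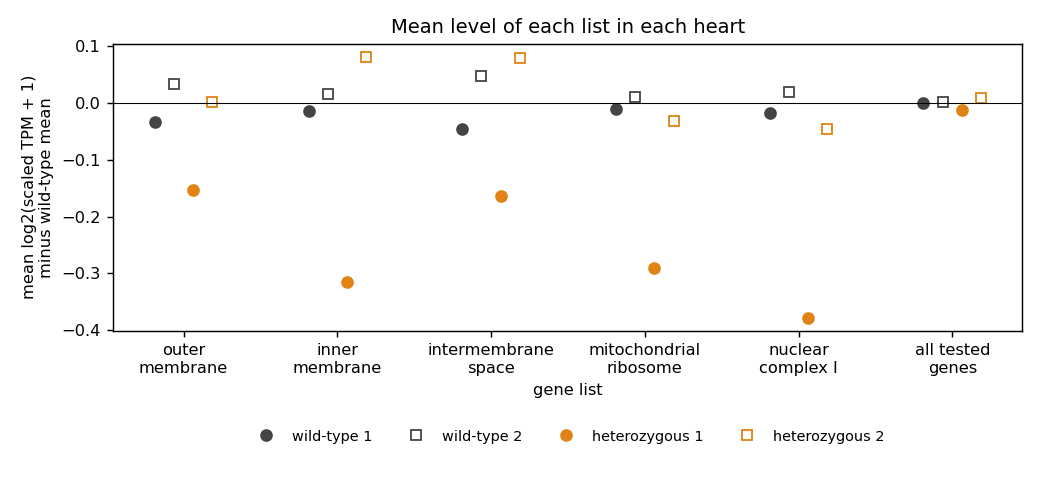
Mean log2(scaled TPM + 1) of each list in each heart, minus the mean of the wild-type hearts; circles are replicate 1 and open squares replicate 2, grey wild-type and orange heterozygous. Heterozygous 1 is the lowest point of every list, furthest for nuclear complex I and the inner membrane genes, while heterozygous 2 is the highest for the inner membrane and intermembrane space genes.

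Ratios of related genes within a heart do not depend on the scaling and were compared for 7 pairs. The genotypes did not overlap in 6 of them, with *Mtx1* in 2 of the 6. Over all tested genes, levels of single genes did not overlap in 47.0%, which is a different measure. No such share was computed for ratios, and the pairs were chosen with earlier results of these data known. The count of 6 is therefore not read as a result about these pairs. For a ratio, 2 hearts against 2 cannot go below p = 0.33 in an exact two-sided permutation test, so that none could pass (p = 0.33 for each of these 6, 0.389 adjusted over the 7 pairs). *Timm17a* to *Timm17b* was 4.58, 5.84, 3.89 and 2.88, lower in both heterozygous hearts by 0.63 in mean log2 ratio (wild-type 2.37 ± 0.25, heterozygous 1.74 ± 0.31, SD, n = 2). Heterozygous 2, in which *Timm17a* itself was near the wild-type level, had the lowest ratio.

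*Dnajc19* to *Dnajc15*, a related J-domain gene of the inner membrane, was 3.32, 4.05, 1.57 and 2.85 (mean log2 ratio 1.87 ± 0.20 for wild-type and 1.08 ± 0.61 for heterozygous, SD, n = 2). *Dnajc15* was at 4.14, 3.21, 4.71 and 4.42 scaled TPM, higher in both heterozygous hearts (difference 0.26, adjusted p = 0.507 from limma). *Grpel1* to *Grpel2*, which encode the nucleotide exchange factors of the motor, was 1.53, 1.55, 0.701 and 1.01 (0.62 ± 0.01 and -0.25 ± 0.38, SD, n = 2). *Grpel1* was at 2.63, 3.03, 1.52 and 2.30 (difference -0.41) and *Grpel2* at 1.72, 1.96, 2.17 and 2.27 (difference 0.18), neither past the test (adjusted p = 0.412 and 0.582 from limma).

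Among the metaxins, *Mtx1* to *Mtx2* was 3.12, 3.50, 4.07 and 4.36 (1.72 ± 0.12 and 2.07 ± 0.07 in mean log2 ratio, SD, n = 2). *Mtx3* to *Mtx1* was 0.0946, 0.0933, 0.0711 and 0.0615 (-3.41 ± 0.01 and -3.92 ± 0.15). *Timm8a1* to *Timm8b* was 0.0476, 0.0492, 0.0779 and 0.0766 (-4.37 ± 0.03 and -3.69 ± 0.02), with the replicates of each genotype close together, subject to the copy of *Timm8a1*. The pore pair *Tomm40* to *Tomm40l*, at 0.893, 0.999, 0.900 and 1.16, overlapped (exact permutation p = 0.667).

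**Figure D5:**
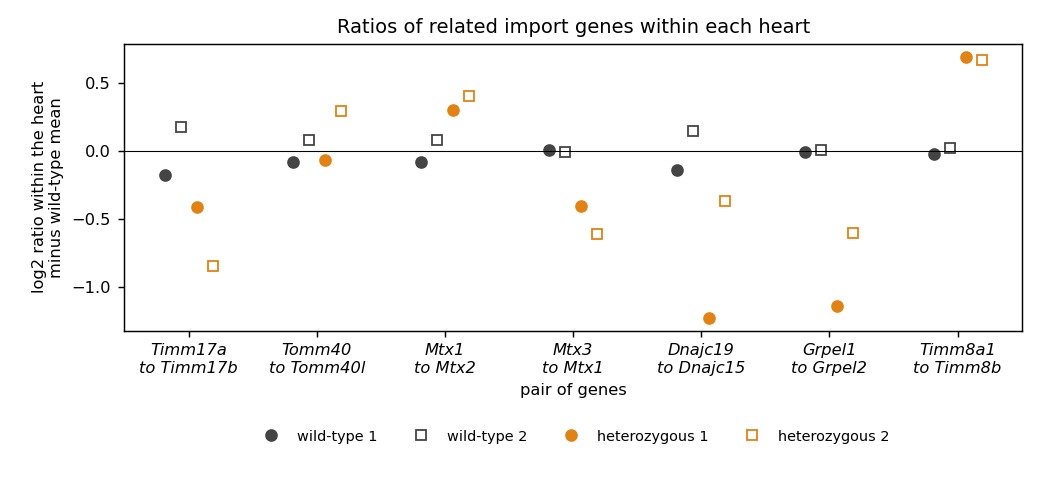
Log2 ratio of each pair of related genes within each heart, minus the mean of the wild-type hearts; circles are replicate 1 and open squares replicate 2, grey wild-type and orange heterozygous. The orange points lie apart from the grey ones in 6 of 7 pairs, and for *Timm8a1* to *Timm8b* both orange points sit near 0.68 above the wild-type mean. No share without overlap was computed for ratios of other genes.

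A list of 34 other mitochondrial genes outside the name rule was read beside them. It holds processing peptidases, chaperones, insertases, cristae proteins, proteases and an ion exchange protein, not all of them part of the import machinery. Of the 33 that were tested, 0 were called, 19 had a difference below 0, and the median was -0.12. Both heterozygous hearts were lower in 12 (36.4%, background 23.3%) and higher in 6 (18.2%, background 23.7%). At an unadjusted p under 0.05 limma gave 4 (12.1%, beside 12.2% of all tested genes, of which 5.71% were lower), all lower: *Letm1*, *Aifm1*, *Chchd6* and *Mipep*. The smallest adjusted p was 0.341.

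*Letm1*, an ion exchange protein of the inner membrane, was at 6.08, 6.29, 3.51 and 4.56 scaled TPM (difference -0.52, SE 0.16, adjusted p = 0.341 from limma). *Aifm1*, which anchors the intermembrane space import factor *Chchd4*, was at 11.7, 13.3, 7.95 and 9.41 (difference -0.48, SE 0.16, adjusted p = 0.356 from limma). Both heterozygous hearts lay below both wild-type hearts in these genes.

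The highest differences of that list were those of *Cox18*, an insertase for a complex IV subunit, and *Mtch2*, an outer membrane insertase. *Cox18* was at 1.52, 2.46, 2.32 and 2.85, with overlap (difference 0.28, SE 0.19, adjusted p = 0.557 from limma). *Mtch2* was at 33.9, 34.0, 41.4 and 40.5, with replicates close together in each genotype and the heterozygous hearts above (difference 0.27, SE 0.16, adjusted p = 0.509 from limma). With TPM as deposited their differences were -0.03 and -0.17, both above the median of all genes in that scaling.

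Transcript length and GC content of the import genes were set beside their differences. Spearman's rho across the 30 genes, which share the 4 hearts and are not replicates, was 0.00 with length and 0.28 with GC content, beside 0.07 and 0.08 across 10031 tested genes. Transcript length ran from 518 to 7280 bases and GC content from 40.3% to 61.7%.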

How the data were processed

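Heart RNA of 2 wild-type and 2 *Ctcf* heterozygous mice aged 8 weeks was analysed. The authors deposited TPM per gene, made with Trim Galore, STAR on mm10 and RSEM per the labels, rounded to 2 decimals. The mRNA capture protocol of the methods is given for E18.5 hearts, and the annotation release is not given in the sources used here. The authors tested read counts with DESeq2. TPM keep no depth, so no count model was fitted.

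TPM were divided by median-of-ratios factors over the tested genes above 0 in every heart, and log2 was taken after adding 1. Genes of mean TPM at least 1 were fitted with limma (3.58.1, lmFit and eBayes with trend, two-sided) in R (4.3.3), with Benjamini-Hochberg adjustment over all 10036. The deposited table has 0 columns left unused. Coordinates are GENCODE's on GRCm38, matched for 55141 of 55401 identifiers. Near-identical copies came from BLAST+ (2.17.0) at 95% identity over 80% of the transcript of the copy. Tables were made with Python (3.11.15) and pandas (2.3.3), and the scripts were tested on simulated data.

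The members, gene lists and tests were chosen with earlier results of these data known. Values in every heart were given for *Ctcf*, the extremes and the highest member of each group, and the ratio pairs. They were also given for the 2 largest differences each way among the other mitochondrial genes read beside the members. Other members given by heart were added after their values were seen. Replicates were taken as separate mice, and the labels link hearts of different genotypes only by the replicate number. Alternatives were other pseudocounts, filters and scalings, a replicate block, eBayes without trend, another membrane assignment and each heart left out.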

Additional observations from a re-analysis of the deposited data

How the results depend on the processing

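No import gene was called in the 11 other model settings that kept all 4 hearts, and the smallest adjusted p of an import gene in them was 0.0720, with the mt- genes removed. Over all genes, calls lower were 2 in the main fit, 4 at a pseudocount of 0.1, 0 without a filter, 11 with TPM as deposited, 12 with mt- genes removed and 4 with mt- genes and copies removed. Calls higher were 0 in the main fit and 2 in each of those 3 scalings. With a heart left out, calls ranged from 4 to 13 lower and from 0 to 11 higher, none of an import gene. The lone heart of a genotype is then assumed to vary like the other genotype, so these fits say little about stability. Same-numbered hearts deviated together at a correlation of only 0.101, and with the replicate block 7 genes were called lower and 3 higher, none of them an import gene. Scaling factors over all genes above 0, added after seeing the data, gave 3 calls lower.

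Import genes lower without overlap were 9 in the main fit, 23 with TPM as deposited, 24 with mt- genes removed and 6 with copies removed too. Those other scalings also moved the median of all tested genes, as given above, and no background was computed for them. The counts of 23, 24 and 6 are therefore not read as a result about import genes. With a heart left out the count was 10 to 22, where the share over all tested genes was 32.6% to 40.6%. Without heterozygous 1 it was 10 (33.3%, background 39.0%) and without heterozygous 2 it was 22 (73.3%, background 40.6%). Import genes higher without overlap were 2 (6.67%, background 23.7%) in the main fit. They were 1 at a mean TPM of at least 5 and 4 under quantile normalization. With TPM as deposited they were 0, with mt- genes removed 0 and with copies removed too 6. For these settings no background was computed, so the counts are not read as a result either. With a heart left out they were 2 to 11, where the share over all tested genes was 33.1% to 40.8%. The most were found without heterozygous 1 (36.7%, background 39.0%). Median differences were -0.46 (outer), -0.50 (inner) and -0.39 (intermembrane space) with TPM as deposited and -0.40, -0.45 and -0.29 with mt- genes removed. With a heart left out they ranged from -0.13 to -0.03, from -0.25 to -0.01 and from -0.11 to 0.090. Outer minus inner was 0.04, 0.18 by the median over members, and -0.08 to 0.16 with a heart left out.

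With TPM as deposited all 30 import genes were below 0, *Timm9*, *Timm10b*, *Timm13* and *Timm21* included. Of the genes named by the rule, differences turned negative for *Cox18* (-0.035), *Ctcf* (-0.29), *Dnajc15* (-0.10), *Grpel2* (-0.12), *Mtch2* (-0.17), *Mtx1* (-0.10), *Timm17b* (-0.20), *Timm44* (-0.27), *Timm50* (-0.21), *Timm8a1* (-0.078) and *Tomm7* (-0.38). With mt- genes removed, where 28 of 30 import genes were below 0, they did so for *Ctcf* (-0.21), *Dnajc15* (-0.0088), *Grpel2* (-0.053), *Mtch2* (-0.061), *Timm17b* (-0.16), *Timm44* (-0.16), *Timm50* (-0.12) and *Tomm7* (-0.29). With copies removed too, *Mtx2* (0.058), *Tomm34* (0.0057) and *Tomm40* (0.0017) turned positive. By construction these settings shift all genes together. Leaving out a heart turned *Ctcf* (-0.065 to 0.27), *Mtx2* (-0.076 to 0.068), *Timm17b* (-0.25 to 0.49), *Timm22* (-0.34 to 0.14), *Tomm34* (-0.13 to 0.033), *Tomm40* (-0.14 to 0.021), *Tomm7* (-0.12 to 0.18) and the log2 ratio of *Tomm40* to *Tomm40l* (-0.070 to 0.29), and the cause was not tested. With 2 hearts per genotype and unknown depth, small differences could not be resolved.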
